A study of Caenorhabditis elegans with 2 samples.

Results

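The regions described here were the 346 nuclear genes annotated as small nucleolar RNA (snoRNA) in the Caenorhabditis elegans genome (WBcel235, the same sequence as ce11), each extended by 200 bp on both sides. They are 346 of 46890 nuclear genes of every kind. A locus was counted as marked when the summit of a deposited SPTF-1 peak fell in its region. Peaks were not used to choose the loci.

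The Sp-family zinc-finger protein SPTF-1 was mapped by chromatin immunoprecipitation with sequencing in 2 biological replicates, which form the only group. The chromatin came from whole mixed-stage embryos, 2.5 h after egg bleaching, with both sexes pooled. Strain OP707 carries the unc-119(tm4063) allele on chromosome III and the transgene wgIs707, which codes for SPTF-1 with a GFP and FLAG tag at its C terminus, so the values describe tagged transgenic protein in all embryonic cells together. For the antibody, the labels give GFP in one place and sptf-1 in another, and the data do not tell which is right. No second condition was analysed here, so the loci are compared with other genes and with each other, not between treatments. Cells of different types cannot be told apart in whole embryos.

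snoRNAs guide chemical modification of other RNAs, chiefly ribosomal RNA. Box C/D snoRNAs direct 2'-O-methylation and box H/ACA snoRNAs direct pseudouridylation. In nematodes some are cut out of introns of protein-coding genes, whereas others have promoters of their own. tRNA genes, by contrast, are transcribed by RNA polymerase III from promoters inside the gene, an A box and a B box, which are bound by the factor TFIIIC. Proteins of the Sp family are known for binding GC boxes and CACCC elements.

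The bases before a snoRNA are shown for loci of high signal, since the loci with and without a summit differed in a tRNA-type word found there. Each run holds 110 bases before the annotated 5' end and the first 20 bases of the gene, 5' to 3' on the strand of the snoRNA, from RefSeq's WBcel235 sequence. Capitals mark a match to an A box word (TGGNNNAG) or to a B box word (GTTCNANNC), both searched after the peak values were seen. C51F7.3 also holds an earlier B box match, gttcaaacc, left in small letters. Positions and spacings given for this locus use the match in capitals. In the first 4 the A box word is followed by a B box word. They are W03C9.9 (chrII:11960788-11960917, plus strand), C51F7.3 (chrV:12303598-12303727, plus), T03F7.8 (chrV:11314148-11314277, plus) and Y43F8C.22 (chrV:19643168-19643297, minus).
W03C9.9: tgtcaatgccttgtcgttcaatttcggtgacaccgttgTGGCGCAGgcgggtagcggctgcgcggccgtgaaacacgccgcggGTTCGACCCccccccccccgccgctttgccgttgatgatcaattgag
C51F7.3: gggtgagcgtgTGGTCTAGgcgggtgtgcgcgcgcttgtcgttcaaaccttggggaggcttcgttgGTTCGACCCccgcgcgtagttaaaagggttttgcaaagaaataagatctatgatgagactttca
T03F7.8: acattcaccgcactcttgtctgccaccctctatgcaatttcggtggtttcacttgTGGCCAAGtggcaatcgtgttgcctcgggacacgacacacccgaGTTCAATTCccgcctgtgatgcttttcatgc
Y43F8C.22: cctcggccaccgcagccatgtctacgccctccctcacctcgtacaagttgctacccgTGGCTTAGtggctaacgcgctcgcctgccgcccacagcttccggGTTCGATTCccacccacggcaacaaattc
The next pair also had strong summits but no match to the B box word. T06C12.16 (chrV:15873907-15874036, minus strand) has an A box word and, further on, GTTCNA without the rest of the B box word, whereas ZK994.7 (chrV:8500469-8500598, plus strand) has neither word.
T06C12.16: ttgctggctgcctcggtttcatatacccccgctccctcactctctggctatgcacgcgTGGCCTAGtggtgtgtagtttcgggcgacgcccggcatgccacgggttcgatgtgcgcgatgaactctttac
ZK994.7: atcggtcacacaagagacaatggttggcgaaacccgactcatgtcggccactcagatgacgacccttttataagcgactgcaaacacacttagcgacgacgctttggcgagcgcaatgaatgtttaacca
R166.7 (chrII:10545310-10545439, minus strand) has both words in the same order as the first 4, yet no thresholded summit.
R166.7: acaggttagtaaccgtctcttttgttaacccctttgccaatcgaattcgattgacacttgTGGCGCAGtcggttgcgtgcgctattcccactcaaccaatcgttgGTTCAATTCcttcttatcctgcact

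The RNAs themselves differ in kind. The gene W03C9.9 (chrII:11960898-11960959, plus strand) has both box C/D words, in capitals, near its ends, and Y43F8C.22 (chrV:19643050-19643187, minus strand) has the ACA of the other class, in capitals, near its 3' end.
W03C9.9 gene: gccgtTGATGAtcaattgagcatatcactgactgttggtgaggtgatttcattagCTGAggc
Y43F8C.22 gene: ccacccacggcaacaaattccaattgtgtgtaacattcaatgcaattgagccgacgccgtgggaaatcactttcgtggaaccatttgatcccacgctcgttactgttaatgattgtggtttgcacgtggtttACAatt

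SPTF-1 summits lay at 76 of the 346 snoRNA loci, or 22.0% (exact Clopper-Pearson 95% interval 17.7 to 26.7%). Among all other nuclear genes, each extended in the same way, 5.08% held a summit. That share is lowered by 15363 piRNA genes with a median length of 21 bp, of which 0.0651% held one. It was 6.69% for protein-coding genes and 9.16% for genes of biotype ncRNA. Among 189191 windows of 530 bp, the median length of a snoRNA region, 1.25% held a summit. The count of 76 rests on the authors' thresholded list of 2430 peaks, which was made from both replicates. The strongest 2430 regions of replicate 1 marked 75 loci (21.7%), and those of replicate 2 marked 78 (22.5%). Both replicates thus gave nearly the same share, and the same windows were marked at 1.25% by replicate 1 and at 1.25% by replicate 2.

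The longer lists of 30000 regions, which include weak regions, marked 154 loci (44.5%) in the pooled list, against 14.5% of the windows. Replicate 1 alone marked 155 loci (44.8%), against 14.6% of the windows, and replicate 2 marked 155 (44.8%), against 14.5%. At 155 loci there was no summit in the pooled list or in either replicate list.

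Among the small RNA genes, snoRNA loci were marked less often than tRNA genes and more often than the rest. Of 612 tRNA genes, 240 held a thresholded summit (39.2%, 35.3 to 43.2%), of 129 snRNA genes 14 did (10.9%, 6.06 to 17.5%), and of 261 miRNA genes 15 did (5.75%, 3.25 to 9.30%). The snoRNA interval overlapped none of these. No snoRNA locus had a tRNA gene within 200 bp, and no summit lay at a snoRNA locus and a tRNA gene at once. snoRNA loci held 7 of the 10 strongest nuclear peaks, 17 of the strongest 50 and 27 of the strongest 100, whereas tRNA genes held 0, 14 and 29. Of all 2419 nuclear thresholded peaks, 77 had the summit at a snoRNA locus and 233 at a tRNA gene.

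Signal here is the authors' own value for each peak, on a scale that is not given and that differs between lists. The median signal was 717 (range 234.9 to 3361) at the marked snoRNA loci, against 299 over all nuclear thresholded peaks. Of the 76 marked loci, 73 had a summit in both whole replicate lists. There the signal had a median of 431 (68.6 to 1938) in replicate 1 and of 327 (86.6 to 1467) in replicate 2. Loci high in one replicate were high in the other, with a Pearson r of 0.98 on the log2 scale and a Spearman rho of 0.98 across the 73 loci, all measured in the same 2 libraries. The thresholded list holds the strongest 2430 regions of the pooled list, so these loci were chosen by the signal of both replicates together. This likeness is therefore not free of how the loci were chosen. Over all 121 snoRNA loci with a summit in both whole replicate lists, r was 0.97 and rho 0.95. The summits of the replicates lay a median of 10 bp apart and at most 329 bp, with 51 of the 73 within 20 bp.

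**Figure D1:**
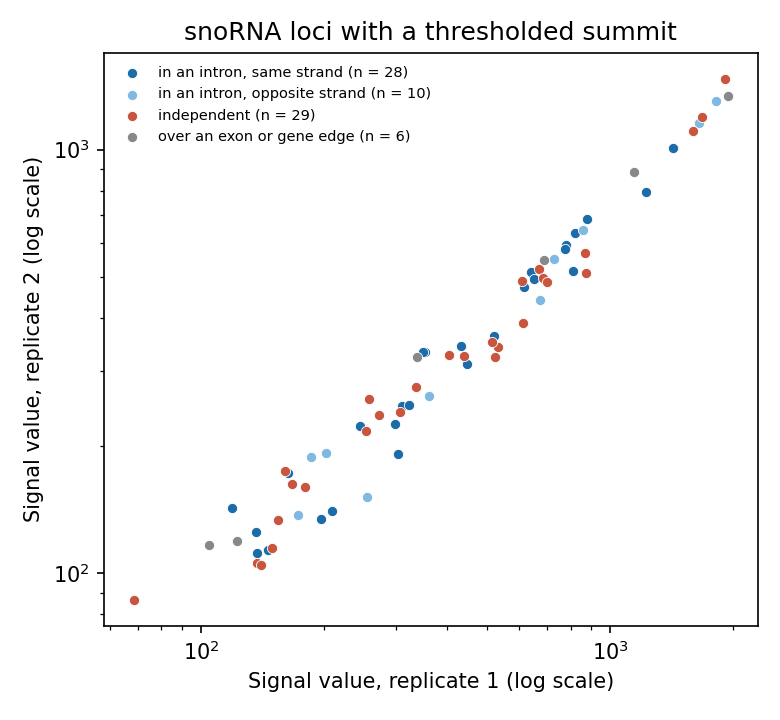
Authors' signal value at snoRNA loci with a thresholded summit in replicate 2 (vertical, log scale) against replicate 1 (horizontal, log scale), 1 point per locus with a summit in both whole lists, coloured by genomic setting. The 73 points lie along a line over the whole range, and all 4 settings are spread along it.

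Introns and independent sites held summits at similar rates. Of 150 snoRNAs inside an intron of a protein-coding gene on the same strand, 30 were marked (20%, 13.9 to 27.3%), and of 124 independent snoRNAs, which overlap no protein-coding gene, 29 were (23.4%, 16.3 to 31.8%). These intervals overlap, and no difference was detectable with these numbers of loci. Replicate 1 marked 29 intron-hosted and 30 independent loci, and replicate 2 marked 29 and 32. A smaller set of 28 snoRNAs lies in introns but on the opposite strand of the host, and 11 of them were marked (39.3%, 21.5 to 59.4%). The remaining 44 loci overlap an exon or an edge of a protein-coding gene, and 6 of them were marked (13.6%, 5.17 to 27.4%). Median signals at marked loci were 692 in same-strand introns, 621 in opposite-strand introns, 764 at independent sites and 953 at exons and edges.

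**Figure D2:**
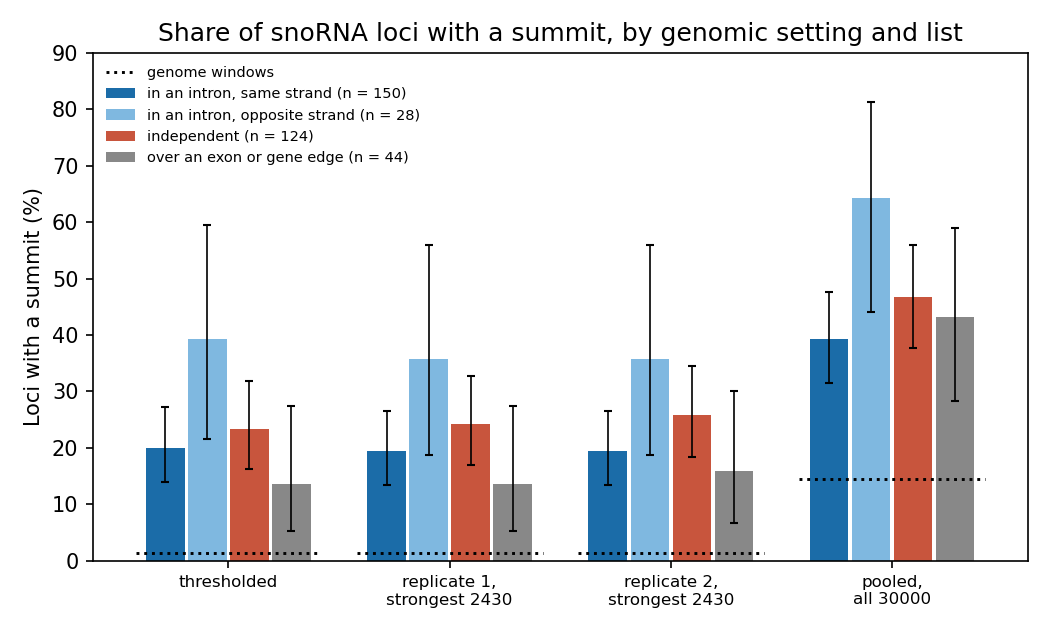
Percent of snoRNA loci with a summit in 4 peak lists (bars, with exact 95% intervals), by genomic setting, with the share of 530 bp genome windows as a dotted line. In each list the intervals of same-strand intron-hosted and independent loci overlap, and all bars stand above the dotted line.

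Summits sat just before the snoRNA, at a like distance in both settings. Over the 76 marked loci the strongest summit had a median position of -51.5 bp from the annotated 5' end (quartiles -59 and -32 bp), that is, upstream of it, with 66 upstream, 7 inside the gene and 3 downstream. A band from 90 to 20 bp upstream held 58 of the 76. In same-strand introns the median position was -51.5 bp (quartiles -55 and -20.75) and at independent sites it was -55 bp (quartiles -59 and -48). In replicate 1 the median over its 75 marked loci was -52 bp, and in replicate 2, over 78, it was -45.5 bp. In 80.8% of all thresholded peaks the summit is the middle of the interval, whose median length is 424 bp. Some strong snoRNA peaks differ, as at W03C9.9, with the summit at 11960833 in an interval from 11960628 to 11961086. How finely a summit is resolved was not tested, so none is read here as exact to a base.

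Some of the marked loci lie close to the start of a protein-coding gene. The nearest protein-coding transcript start was within 200 bp of the summit at 8 of the 76 loci, and its distance ran from 9 to 16227 bp with a median of 1140.5 bp. Of 217 snoRNAs outside the promoter windows of protein-coding genes (1000 bp upstream to 500 bp downstream of a transcript start), 49 were marked (22.6%), and of the 129 inside such windows 27 were.

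**Figure D3:**
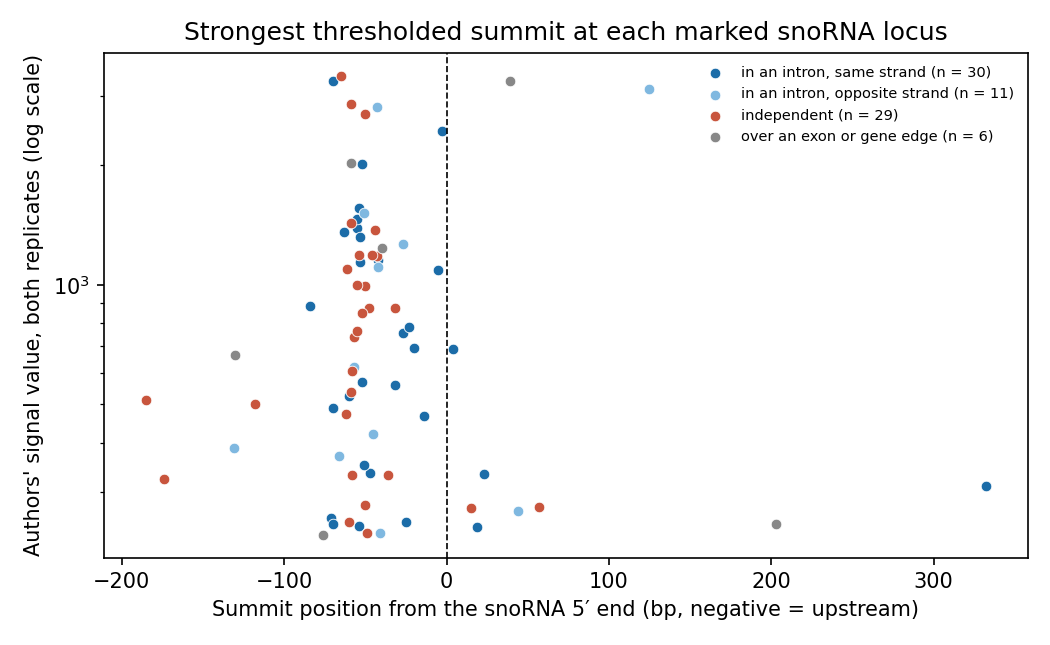
Authors' signal value (vertical, log scale) of the strongest thresholded summit at each of the 76 marked snoRNA loci against its position from the snoRNA 5' end (horizontal, bp, negative upstream), coloured by genomic setting. Most points gather around 50 bp upstream, with strong exceptions at +39 and +125 bp. The +39 point shares its summit with C51F7.3, plotted at -70 bp. Exceptions of low signal include those at +203 bp (signal 249) and +332 bp (312). At exons and edges 3 of 6 points lie between 90 and 20 bp upstream.

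The strongest nuclear peak at a snoRNA was at the independent gene W03C9.9, whose upstream bases are printed above. Its signal was 3361 with both replicates together, 1904 in replicate 1 (rank 5) and 1467 in replicate 2 (rank 7), and the summit lay 65 bp upstream. Among the independent loci ZK265.10 followed with 2863 (1674 and 1192 in replicates 1 and 2, ranks 8 and 14), at -59 bp. T06C12.16 had 2695 (1596 and 1108, ranks 12 and 16), at -50 bp. All of these stood within the strongest 16 regions of each replicate. The other independent loci among the 12 of highest signal were, in falling order, H09I01.2 (1433), F32E10.10 (1378), C46C2.8 (1189), T19B4.8 (1187), C41C4.11 (1182), ZK643.9 (1099), F30H5.4 (997), Y23H5B.10 (994) and T10B9.11 (874). These 9 had signals of 531 to 872 in replicate 1 and of 341 to 570 in replicate 2. The 12 summits lay between 65 and 32 bp upstream, and 7 of the 12 loci had a B box word before the gene.

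Among same-strand intron-hosted loci the highest signal was at C51F7.3, in the gene frm-7, which codes for a FERM-domain protein. It had 3264 with both replicates together, 1938 in replicate 1 (rank 4) and 1338 in replicate 2 (rank 9), at -70 bp. The same summit lies 39 bp inside C51F7.4, a second annotated snoRNA just before it, so 1 peak marks both genes. ZK994.7, in the peroxidasin gene pxn-1, had 2435 (1427 and 1010 in replicates 1 and 2, ranks 14 and 19), at -3 bp. Y43F8C.22, in Y43F8C.7, had 2017 (1224 and 794, ranks 20 and 27), at -52 bp. Ranks in the replicates again stood close together. The other intron-hosted loci of the 12 were D1046.6 in cfim-2, a gene of pre-mRNA cleavage factor Im (1560), F55A11.10 in F55A11.6 (1466), F38E11.14 in cng-3, a cyclic nucleotide-gated channel gene (1388), C10C6.8 in catp-8, a cation-transporting ATPase gene (1361), C27H6.5 in unc-41, which codes for a stonin of synaptic vesicle recycling (1317), M106.6 in mix-1, a condensin subunit gene (1156), C05D2.15 in madf-11 (1142), Y38F2AR.14 in Y38F2AR.12 (1091) and K11C4.6 in unc-70, the beta-spectrin gene (884). These 9 had signals of 521 to 878 in replicate 1 and of 363 to 684 in replicate 2. All 12 summits lay between 84 and 3 bp upstream, and 6 of the 12 had a B box word.

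Strong summits also stood at snoRNAs on the opposite strand of the host, named here after their values were seen. B0334.12, in the potassium channel gene twk-5, had 3115 (1809 and 1305 in replicates 1 and 2), T03F7.8, in the cuticlin-like gene cutl-18, had 2809, C04G6.12, in the MAP kinase gene mpk-2, had 1518, and C27H5.9, in pdl-1, had 1268. The summits of the last 3 lay at -43, -51 and -27 bp. B0334.12 departed from this, with the summit 125 bp downstream of its annotated 5' end, beyond the end of a gene of 70 bases.

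B0334.12 was therefore also read on the strand opposite to its annotation, a check made after its values were seen. On that strand the summit lies 56 bp upstream, and an A box word starts 62 bases and a B box word 18 bases before the gene. The words TGATG and CTGA stand near the ends of the gene. TGATG is a shorter form of TGATGA, the word used to class all genes by kind of RNA. The whole TGATGA is not found there. The run below is that strand of chrII:11484683-11484832 (minus), 80 bases before the gene and the gene itself. The A box, B box, TGATG and CTGA words are in capitals.
B0334.12 opposite strand: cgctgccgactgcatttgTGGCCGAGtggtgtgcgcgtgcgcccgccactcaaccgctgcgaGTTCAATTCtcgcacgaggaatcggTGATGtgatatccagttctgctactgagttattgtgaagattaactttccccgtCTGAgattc
Of the 76 marked loci, B0334.12 was the only one with a B box word before the gene on the opposite strand, and of the 270 unmarked loci 8 had one.

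The B box word was found in the 150 bases around the start (130 before and 20 inside, sense strand) of 28 of the 76 marked loci (36.8%), against 10 of the 270 unmarked loci (3.70%). In genome windows of the same length it stood in 2.70%, and at protein-coding gene starts in 2.17%. On the opposite strand of the same snoRNA windows it stood in 2 of 76 marked and 3 of 270 unmarked loci. tRNA gene bodies, where the word belongs, held it in 587 of 612 (95.9%). The word was thus commoner on the sense strand of marked snoRNA loci than in any of these other windows, tRNA genes apart.

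Read the other way, 28 of the 38 loci with the word were marked (73.7%, 56.9 to 86.6%), against 48 of the 308 without it (15.6%, 11.7 to 20.1%). The split was alike in both settings. In same-strand introns 11 of 16 loci with the word were marked (68.8%), against 19 of 134 without (14.2%). At independent sites 11 of 13 with the word were marked (84.6%), against 18 of 111 without (16.2%). Marked loci with the word had a median signal of 1099, and those without it 495. A match is a run of letters and does not show that a factor binds there.

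The A box word stood in 30 of 76 marked loci (39.5%), 37 of 270 unmarked loci (13.7%) and 10.3% of genome windows. An A box word followed by a B box word, with 15 to 80 bases from start to start, stood in 16 of 76 marked loci (21.1%), in 2 of 270 unmarked loci (0.741%) and in 0.168% of genome windows. Of the 18 loci with this order, 16 were marked (88.9%). The spacing had a median of 44 bases (35 to 55) at marked snoRNA loci, and 44 bases also in tRNA genes. At marked loci the B box word started a median of 14 bases before the annotated snoRNA 5' end (5 to 44). At the 16 marked loci where a B box word followed it, the A box word started a median of 59.5 bases before that end (49 to 99). These values leave out the earlier B box match at C51F7.3.

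**Figure D4:**
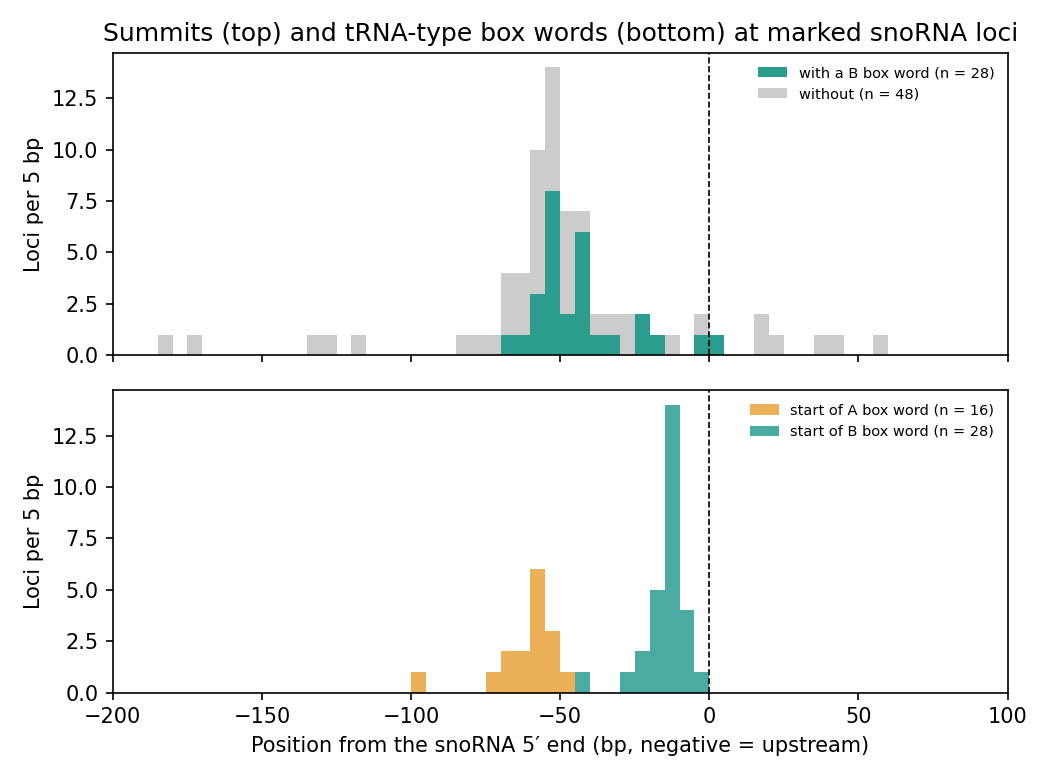
Number of marked snoRNA loci per 5 bp by the position of the summit (top, loci with a B box word in green, without it in grey) and of the A box and B box words (bottom), both from the snoRNA 5' end in bp. A box words are drawn only for the 16 loci where a B box word follows. Summits with and without the B box word share a peak near 50 bp upstream, between these A box starts (median -59.5) and the B box starts (median -14). Outside the axis are 3 summits beyond +100 bp.

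Most summits lay before the word at snoRNAs and at tRNA genes, at close medians but with a wider spread at tRNA genes. From the start of the B box word, the summit had a median position of -32.5 bp at the 28 snoRNA loci (quartiles -39.25 and -25.75) and of -38 bp at 230 tRNA genes (quartiles -59 and -16). Counted from the gene's own 5' end the places differed, with medians of -51.5 bp at snoRNAs and +14.5 bp at tRNA genes. The 48 marked snoRNA loci without the word had a median of -53.5 bp, and the 28 with it -50 bp.

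The word was also counted in the 150 bp around each summit, on either strand, for all nuclear thresholded peaks. It stood at 30 of 77 summits in snoRNA regions (39.0%), at 175 of 233 summits at tRNA genes (75.1%) and at 73 of 2109 summits elsewhere (3.46%). The first 6 letters of the word, GTTCNA, stood in 8 of the 48 marked loci that lack the whole word (16.7%), in 30 of the 260 unmarked loci that lack it (11.5%) and in 15.4% of all genome windows of 150 bases. The share at these marked loci is near that genome share, but the genome windows include those with the whole word. A share over genome windows that lack the whole word was not counted.

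Elements known for Sp proteins and for other promoters were counted in the whole snoRNA regions on both strands. The GC box GGGCGG stood in 18 of the marked regions (23.7%), 33 of the unmarked (12.2%) and 7.86% of 530 bp windows. CACCC stood in 37 marked regions (48.7%), 102 unmarked (37.8%) and 28.49% of windows. TATAAA stood in 35 marked regions (46.1%), 104 unmarked (38.5%) and 45.9% of windows. Counted in this same way, over the whole region and on both strands, the B box word GTTCNANNC stood in 36 marked regions (47.4%), 52 unmarked (19.3%) and 17.9% of windows. This contrast is smaller than in the 150 bases of the sense strand given above, a window chosen after the values were seen. The bases themselves differed too, as the 100 bases before the gene had a median GC content of 55% at marked and 41% at unmarked loci, and GC-rich words are commoner where GC content is high. What GC content contributes to these counts was not tested.

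Within same-strand introns, marked loci had room before the snoRNA. The host intron ran for at least 68 bases before each of the 30 marked snoRNAs (median 169, highest 5213), whereas before the 120 unmarked ones it ran for a median of 102.5 bases (6 to 15843). Of 52 loci with fewer than 60 intron bases before the snoRNA, 0 were marked, which allows a share of up to 6.85%. With 60 to 150 bases 13 of 28 were marked (46.4%, 27.5 to 66.1%), and with more than 150 bases 17 of 70 (24.3%, 14.8 to 36.0%). These bounds were set after the values were seen. Intron length itself had medians of 345.5 bases at marked and 404.5 at unmarked loci.

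**Figure D5:**
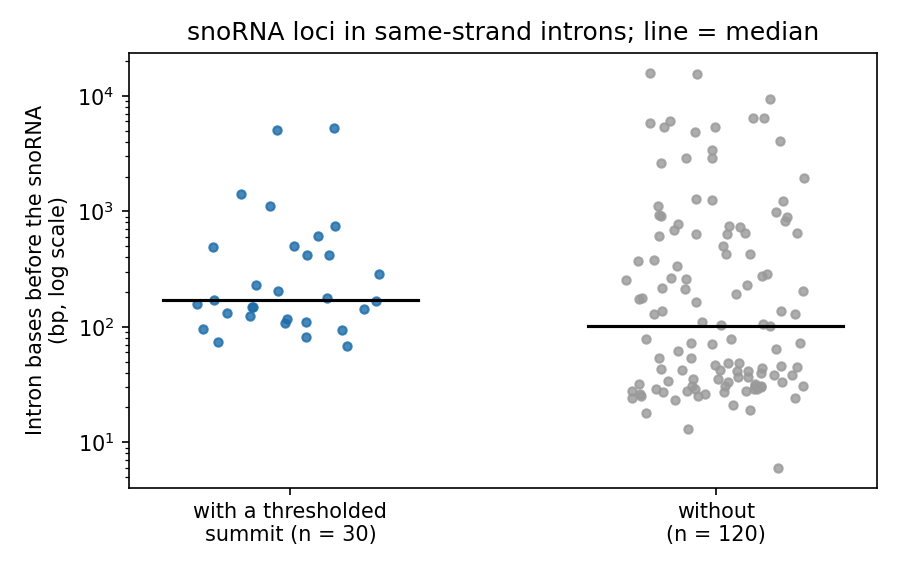
Intron bases before the snoRNA (vertical, log scale) for the 30 marked and 120 unmarked snoRNA loci in same-strand introns, 1 point per locus, with the median as a line. No marked locus lies below 68 bases, whereas the unmarked loci include a dense group below 60.

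Hosts that code for ribosomal proteins, long known for carrying snoRNAs in their introns, showed no thresholded summit at the snoRNA. Of 19 snoRNAs in introns of rpl and rps genes, 0 were marked, which allows a share of up to 17.6%, and 18 of the 19 had fewer than 60 intron bases before them. Hosts with a thresholded summit elsewhere in their promoter windows had 4 marked snoRNAs of 51 (7.84%), in fars-1, mix-1, madf-11 and unc-70. Hosts without one had 26 of 99 (26.3%). The snoRNA's own summit was left out of this rule. A marked locus whose only host promoter summit was its own therefore counted among the 99. This was so at F55A11.10, Y71F9AM.7, smy-2, D1046.6 and Y37E3.20, with summits 69 to 351 bp from a host transcript start. These shares are thus not like for like. The room before the snoRNA differed too. Of the 51 loci in hosts with a promoter summit elsewhere, 30 had fewer than 60 intron bases before them, against 22 of the other 99. Among loci with 60 or more such bases, 4 of 21 were marked in hosts with a promoter summit elsewhere (19.0%). In hosts without one, counted by the same rule, 26 of 77 were (33.8%). How much of the gap comes from room, or from leaving out the snoRNA's own summit, was not tested.

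Some marked loci had another annotated noncoding RNA before them. Of 35 snoRNAs with a gene of biotype ncRNA in the 100 bases upstream, 17 were marked (48.6%, 31.4 to 66.01%), against 59 of 311 without one (19.0%, 14.8 to 23.8%). By kind of RNA the shares were closer. Of 14 genes with both box C/D words, 5 were marked (35.7%), of 78 with an ACA end 18 (23.1%), and of the 254 with neither 53 (20.9%). The words searched were TGATGA in the first 20 bases with CTGA in the last 20, and ACA in the last 6, so most snoRNAs were left without a class.

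The lowest share was on the X chromosome. Of 33 snoRNA genes on the X, 2 were marked (6.06%, 0.743 to 20.2%), Y102A11A.16 with a signal of 274 and C53B7.8 with 279, both low among marked loci. On chromosome III 7 of 54 were marked (13.0%), and on chromosome V 16 of 55 (29.1%), with the other autosomes between. The intervals of the X and of chromosome V overlap. Shares of other genes and of windows were not counted by chromosome. Whether the low share on the X is particular to snoRNA genes was therefore not tested.

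Just inside the threshold were T23G11.12 (signal 234.9, ranks 4249 and 1786 in replicates 1 and 2), F25H2.15 (238, ranks 2056 and 2245) and K02C4.7 (238, rank 3243 in replicate 1 and no summit in replicate 2). Just outside were F19H8.6 (203, ranks 1934 and 9931), D2021.6 (191, ranks 8164 and 2034) and T28B8.11 (187, ranks 4028 and 5017). Of the 76 marked loci 69 were within the strongest 2430 regions of both replicates, 1 of replicate 1 only, 4 of replicate 2 only and 2 of neither.

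Absence from the thresholded list did not always mean a weak signal. W01C9.6 had a signal of 491 in replicate 1 (rank 155) and 363 in replicate 2 (rank 167), at -53 and -45 bp. K02C4.8 had 290 and 138 (ranks 426 and 1239), at -51 and -22 bp, and F09G2.14 had 217 and 141 (ranks 750 and 1184), at -77 and -102 bp. At these 3 loci both replicates were marked, but no interval of the pooled list used here overlapped the region, so the thresholded list, which is the top of the pooled one, could not mark them. Whether these gaps are the authors' own cannot be told here, and the count of 76 leaves these 3 loci out. Conversely, loci with both box words were not all marked. R166.7, printed above, was listed only at ranks 25349 in the pooled list, 26273 in replicate 1 and 24697 in replicate 2.

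The genes of proteins that work with snoRNAs were looked at by their promoter windows. Of 18 listed, 17 were matched and 7 had a thresholded summit (41.2%), against 1650 of 19973 protein-coding genes (8.26%). fib-1, which codes for the methyltransferase fibrillarin of box C/D particles, had a signal of 577 (ranks 431 and 275 in replicates 1 and 2), 123 bp upstream of a transcript start. nol-58, another box C/D core gene, had 266. Of the H/ACA core genes, dkc-1, which codes for the pseudouridine synthase, had 323 and Y48A6B.3 had 294. The AAA+ ATPase genes ruvb-1 and ruvb-2, whose products help assemble the particles, had 303 and 272. Signals here were all below the snoRNA median of 717. nol-56, snu-13, garr-1 and nola-3 had no thresholded summit. In the snRNA activating complex, which serves promoters of small nuclear RNAs, 1 of 7 matched genes was marked, snpc-3.4 with 250.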

How the data were processed

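SPTF-1 ChIP-seq peak lists of 2 biological replicates of whole embryos were analysed, in the authors' ce11 build. Per the deposited file listings, peaks were called against a control and the thresholded list is an optimal irreproducible discovery rate (IDR) set. No aligner, caller or IDR cutoff is given in the sources used here. Depth is unknown, so no value has a counting error, and the control library was not analysed here. A deposited region comes with a summit offset, a −log10 q value and a signal value, all 3 the authors' own. Signal ranked the peaks, and the q value was not used for this. The ce10 lists were not used.

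Genes and introns came from Ensembl release 115 and sequence from RefSeq, both WBcel235. A region was a snoRNA gene with 200 bp on both sides, and a summit was the interval start plus the offset. Intron-hosted meant inside an intron of a protein-coding transcript of the same strand and over no exon of it, and independent meant overlapping no protein-coding gene. Windows of 530 bp covering the nuclear genome served as background. Positions are along the strand of the snoRNA, negative upstream. The loci named are the 12 of highest signal in each of these settings, those next to the threshold, loci that share a summit and the hosts, besides those named otherwise above. Shares have exact Clopper-Pearson 95% intervals, which treat loci as independent although neighbours can share a summit, and no test of chance was made. The members, lists and words were chosen with earlier results of these data known, and the box words, intron bounds, ribosomal hosts, host promoters and upstream ncRNA genes after the values were seen. The alternatives changed the extension, the list, each replicate alone, a stricter list, merging, promoter windows, nearby tRNA genes and the host rule. The counting rules were first tested on data with known answers. The software was SciPy 1.17.1 and NumPy 2.4.6 under Python 3.11.15, with matplotlib 3.10.9 for the plots.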

Additional observations from a re-analysis of the deposited data

How the results depend on the processing

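Of 58 alternatives to the shares, positions and word counts, 47 stayed within the interval of the reported value. Of the rest, 10 moved beyond that interval and 1 turned the direction. The 47 include alternatives that left out loci with a tRNA gene within 200 bp. There were 0 such loci, so these repeated the reported values and tested nothing. With no extension, so that a summit had to fall in the gene itself, 2.31% of all snoRNA loci, 2.00% of intron-hosted and 2.42% of independent loci were marked, and the median position was +31 bp over 8 loci, since upstream summits were left out by construction. With the full pooled list, which includes weak regions, the shares were 44.5% of all, 39.3% of intron-hosted and 46.8% of independent loci, the median position was -40.5 bp, the B box word stood at 19.5% of marked loci, and 17.3% of loci with fewer than 60 intron bases before them were marked. With an extension of 500 bp that last share was 9.62%. With either replicate left out, the shares ran from 21.7 to 22.5% of all, from 19.3 to 19.3% of intron-hosted and from 24.2 to 25.8% of independent loci, the position from -52 to -45.5 bp and the B box share from 35.9 to 37.3%. The share of loci with fewer than 60 intron bases stayed at 0. No paired analysis was possible because the study has 1 group. The read depth is unknown, and weak summits at snoRNA loci without a thresholded one cannot be told from background regions in these lists.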
